A study of Mus musculus with 37 samples.

Results

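Expression in the mouse ureteric bud was set against that in the mesenchyme it grows into, gene by gene, in kidneys at E11.5 (embryonic day), over 12 of the 37 arrays of the series. The members were chosen by source name: 4 arrays of ureteric bud and 8 arrays of metanephric mesenchyme. All 12 samples came from wild-type CD-1 mice, an outbred strain, at Theiler stage 19, and the labels name no treatment or engineered allele in either group. Per the labels, each sample pooled about 50 sections from 5 kidneys, and its RNA was amplified in 2 rounds and hybridized to 1 Affymetrix array. Nothing in the labels says which pools share embryos or litters, so the p-values below measure the spread between pooled samples. That spread is estimated within all 9 kidney components of the series, not in bud and mesenchyme alone. The protocol text describes laser capture for every sample, but the titles do not. Among the bud arrays, replicates 1, 2 and 4 are titled dissected and replicate 3 collagenase. Mesenchyme replicates 5 and 7 are titled dissected and replicates 6 and 8 collagenase; replicates 1, 3 and 4 are titled LCM, for laser capture microdissection, and replicate 2 names no method. The title of mesenchyme replicate 1 also holds "closemes", although its source name is metanephric mesenchyme like the others. The bud therefore has like-titled partners only in mesenchyme replicates 5 to 8, so results are given against all 8 arrays, and each named gene whose call is lost against those 4 is marked.

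The ureteric bud is the epithelial outgrowth of the nephric duct that branches to form the collecting duct system. The metanephric mesenchyme around it holds the progenitors of the nephron, which condense at the bud tips, and the stromal progenitors. The tissues signal to each other: Gdnf from the mesenchyme acts through Ret and its co-receptor Gfra1 on the bud to start branching, and Wnt9b from the bud acts on the mesenchyme to start nephron formation.

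Expression is given as log2 signal, the base-2 logarithm of the normalized array signal plus an offset of 34.62, on which a signal of 0 lies at about 5.13. A difference is the bud mean minus the mesenchyme mean on this scale, with SE its standard error, and a gene is called when limma's Benjamini-Hochberg adjusted p is under 0.05 and the difference is at least 1 in size. "Rose" and "fell" are used below for genes called higher and lower in the bud. Of 15709 genes tested, 1280 (8.15%) were called, 641 higher in the bud (4.08%) and 639 lower (4.07%). The difference was at least 2 in size for 387 of the genes that rose and 405 of those that fell, and at least 4 for 59 and 89. The 4 bud and 8 mesenchyme arrays did not overlap for 2088 genes (13.3%), among them 1151 of the 1280 called. Another probe set was measured for 574 of the called genes. At least 1 other was called the same way for 251 of these, and none was called the opposite way. Within the methods named in titles, the sign of the difference was the same for all 1280 called genes between dissected arrays and for 1278 between collagenase arrays. It was also the same for 1273 in the single pair that shares a date code in its titles, bud replicate 3 and mesenchyme replicate 6. These arrays are among the 12 whose means gave the calls, so such agreement is largely built in and is no separate check. Fitting only the 12 arrays gave 2119 calls, which held 1273 of the 1280. In a fit of all 37 arrays with date codes added as fixed effects, chosen after seeing the data, the difference rests on that single pair: limma called no gene, 603 genes had an unadjusted p under 0.05, and the median SE was 1 against 0.44. Scaling by the median without quantile normalization moved the median difference of all genes from 0.02 to 0.23 and gave 922 genes higher and 591 lower.

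**Figure D1:**
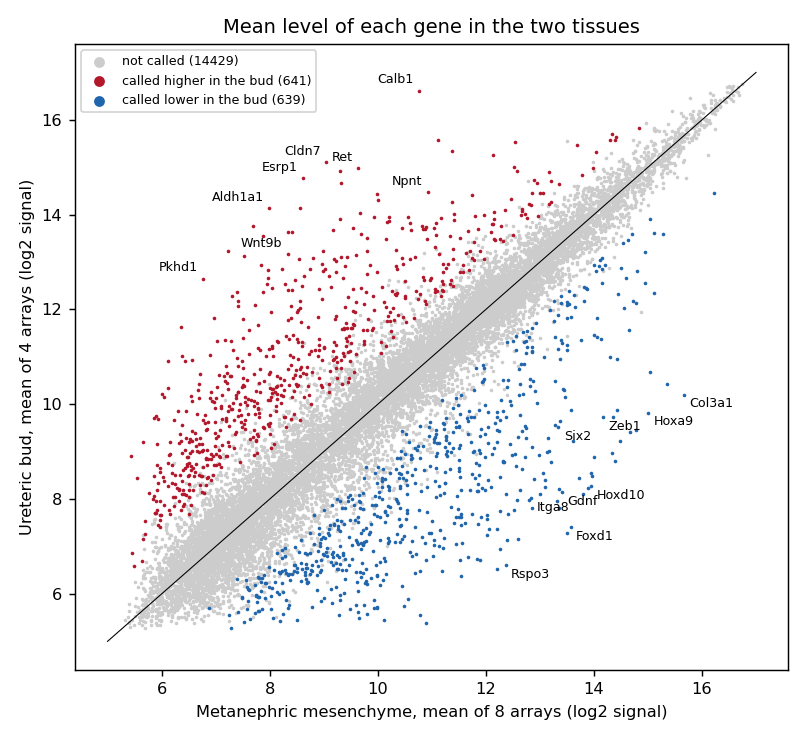
Mean log2 signal of each of 15709 genes in the ureteric bud (vertical axis, 4 arrays) against the metanephric mesenchyme (horizontal axis, 8 arrays), with the line of equal levels. The 641 genes called higher in the bud lie above the line and the 639 called lower below it; some of the genes named in the text are labelled.

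All 11 measured ureteric epithelium markers rose, 8 of 11 nephron progenitor markers fell and 10 of 12 stromal markers fell. The mean log2 signal of the ureteric list was 13.29 to 13.88 in the bud arrays. In the mesenchyme it was 8.29 to 8.53 in replicates 5 to 8 but 9.57 to 11.21 in replicates 1 to 4. The nephron progenitor list lay at 7.68 to 8.34 in the bud and 10.94 to 11.80 in the mesenchyme, and the stromal list at 7.85 to 8.75 and 12.07 to 12.87. Markers of other cells also differed: the macrophage list lay at 7.18 to 7.40 in the bud and 8.21 to 10.08 in the mesenchyme, the erythroid list at 8.43 to 9.68 and 10.14 to 12.29, and the endothelial list, which overlapped, at 8.24 to 9.18 and 9.0 to 10.90. Pearson correlations between arrays, across genes, were 0.963 to 0.979 among bud arrays and 0.886 to 0.978 among mesenchyme arrays. Mesenchyme replicate 8 stood apart, with no correlation above 0.917 to another mesenchyme array. The median signal before normalization did not overlap between the groups, at 127 to 133 in the bud and 140 to 197 in the mesenchyme. It was highest in mesenchyme replicate 8, at 197 against 127 to 182 for the other 11 arrays. The 5′ minus 3′ difference of the Gapdh control probe sets, a sign of RNA integrity and amplification, was -3.60 to -2.70 in the bud and -6.03 to -3.82 in the mesenchyme. For the Actb control probe sets the groups overlapped, at -3.95 to -3.43 in the bud and -5.1 to -3.44 in the mesenchyme. The part of these differences in the results that follow was not tested.

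**Figure D2:**
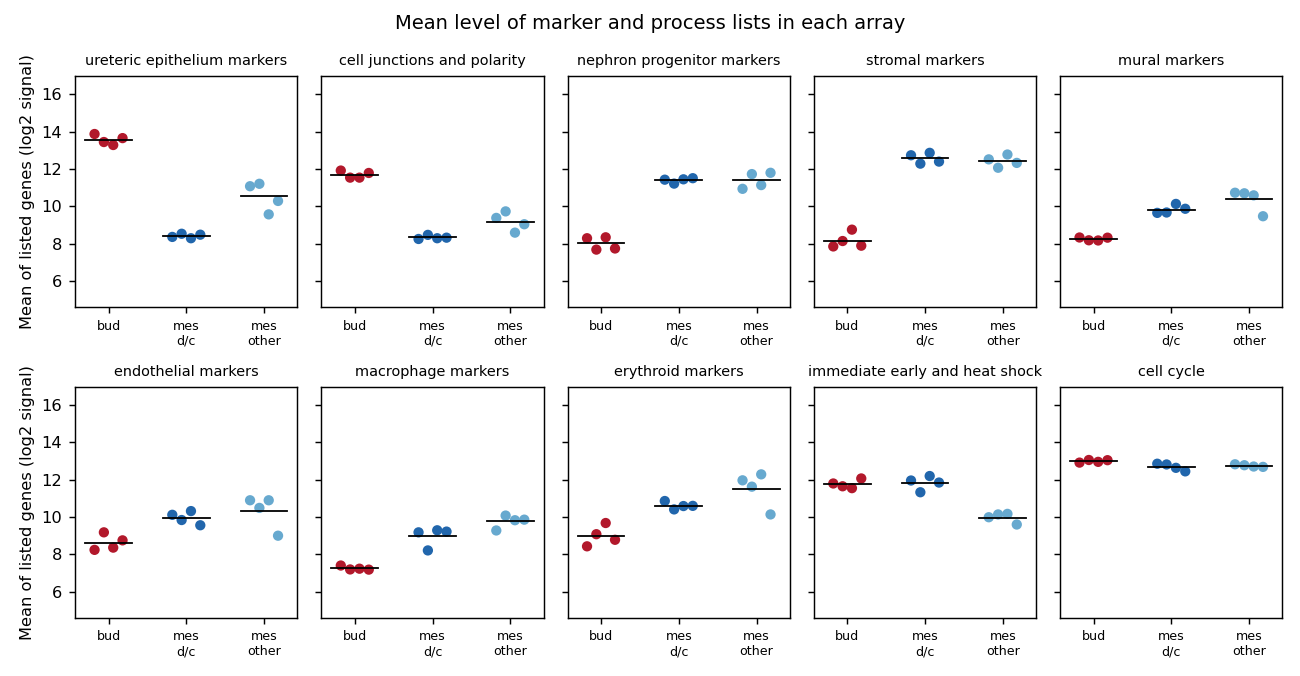
Mean log2 signal of the measured genes of 10 lists in each array; points are arrays and lines group means, for the bud (4 arrays), mesenchyme titled dissected or collagenase (mes d/c, 4 arrays) and the other mesenchyme (mes other, 4 arrays). Epithelial lists separate the bud from every mesenchyme array, and immediate early genes separate the other mesenchyme from both remaining groups.

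Genes that hold an epithelium together were higher in the bud. Of 34 measured genes for cell junctions and polarity, 25 rose, none fell and 9 were not called, with a median difference of 3.18 against 0.02 over all genes. Cdh1, which encodes the adherens junction protein E-cadherin, measured 13.63, 12.68, 12.46 and 12.99 in the bud arrays and 5.33 to 10.45 (median 7.54) in the mesenchyme. The difference was 5.10 (SE 0.66, limma adjusted p = 1.01e-06). Every bud array lay above every mesenchyme array, and against the 4 like-titled arrays the difference was 6.75. Cldn7, a tight junction claudin, measured 15.36, 15.17, 14.65 and 15.22 in the bud arrays and 5.6 to 12.67 (median 8.80) in the mesenchyme, and rose by 6.05. Claudins as a family divided: Cldn3 (6.07), Cldn4 (4.66), Cldn6 (5.28), Cldn8 (5.6) and Cldn23 (3.49) rose with Cldn7, while of 19 measured claudins 7 rose, 2 fell and 10 were not called. The tight junction genes Ocln (4.70) and Cgn (3.82), the cell adhesion gene Epcam (3.96) and the apical polarity gene Crb3 (2.36) also rose. Tjp1, the tight junction scaffold, was not called: it measured 13.87, 13.76, 14.30 and 13.92 in the bud arrays and 13.24 to 14.41 (median 13.92) in the mesenchyme, and the groups overlapped.

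Genes for keratins and the apical surface followed, with 13 of 21 higher, 1 lower and a median of 2.49. In the whole keratin family of 33 measured genes, 5 rose, none fell and the median was 0.04. The simple-epithelium keratins Krt8 and Krt18 rose by 4.45 and 3.90. Rab25 and Ap1m2, which sort cargo to epithelial surfaces, rose by 4.79 and 4.28, and the membrane sorting genes Mal and Mal2 by 6.0 and 4.85. Esrp1, an epithelial splicing regulator, measured 14.97, 14.43, 15.13 and 14.58 in the bud arrays and 5.48 to 12.57 (median 8.21) in the mesenchyme. It rose by 6.16 (SE 1.17, limma adjusted p = 0.000305), the largest rise among called genes without overlap, and mesenchyme replicates 5 to 8 were again the low ones. The 1 member that fell was Vim, the mesenchymal intermediate filament gene, at -2.65. Mesenchymal adhesion and cytoskeleton genes went the other way, with 13 of 20 lower and 1 higher (median -2.40). Cdh11, a mesenchymal cadherin, measured 8.29, 7.86, 8.0 and 7.72 in the bud arrays and 12.44 to 14.02 (median 13.27) in the mesenchyme; Cdh2 (-3.72), Cdh6 (-4.01) and the atypical cadherin gene Fat4 (-5.66) fell with it. Cdh1, Cdh3 (3.43) and Cdh16 (5.66) were the 3 that rose among 19 measured genes of the cadherin (Cdh) family, and 6 fell.

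Promoters of several of these junction and apical genes are shown because they hold repeated copies of one E-box, the hexamer CAGGTG or its reverse complement CACCTG, which is the known binding site of the repressors Zeb1, Zeb2, Snai1 and Snai2. Each window runs 5′ to 3′ on the gene's strand from 250 bases before to 50 after an annotated start, from RefSeq on GRCm38.p6; E-boxes are in capitals. Crb3 is at chr17:57061951-57062250 (plus strand), Ap1m2 at chr9:21312284-21312583 (minus strand), Epcam at chr17:87635729-87636028 (plus strand), Rab25 at chr3:88548230-88548529 (minus strand) and Cldn4 at chr5:134946885-134947184 (minus strand).
Crb3: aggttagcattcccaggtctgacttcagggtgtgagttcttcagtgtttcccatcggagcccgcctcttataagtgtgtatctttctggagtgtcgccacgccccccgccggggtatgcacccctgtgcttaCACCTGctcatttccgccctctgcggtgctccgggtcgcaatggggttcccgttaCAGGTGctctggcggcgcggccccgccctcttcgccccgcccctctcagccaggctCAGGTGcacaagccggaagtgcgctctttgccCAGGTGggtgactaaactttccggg
Ap1m2: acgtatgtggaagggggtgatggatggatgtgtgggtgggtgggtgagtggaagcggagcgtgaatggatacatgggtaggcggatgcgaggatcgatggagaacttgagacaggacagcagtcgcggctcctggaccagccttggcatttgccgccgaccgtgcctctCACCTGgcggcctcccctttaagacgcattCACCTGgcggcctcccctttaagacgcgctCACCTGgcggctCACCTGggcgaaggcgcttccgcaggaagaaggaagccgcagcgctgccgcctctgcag
Epcam: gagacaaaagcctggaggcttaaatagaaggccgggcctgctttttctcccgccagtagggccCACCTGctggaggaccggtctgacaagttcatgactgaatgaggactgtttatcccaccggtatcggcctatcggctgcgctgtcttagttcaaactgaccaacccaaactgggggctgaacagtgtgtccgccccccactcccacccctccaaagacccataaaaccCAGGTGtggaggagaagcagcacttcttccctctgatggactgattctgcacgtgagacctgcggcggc
Rab25: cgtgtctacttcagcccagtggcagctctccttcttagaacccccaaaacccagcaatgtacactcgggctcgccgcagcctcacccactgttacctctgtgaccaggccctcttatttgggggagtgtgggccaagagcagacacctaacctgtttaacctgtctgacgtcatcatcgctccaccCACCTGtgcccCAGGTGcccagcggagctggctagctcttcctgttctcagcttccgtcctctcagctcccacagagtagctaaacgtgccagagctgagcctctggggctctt
Cldn4: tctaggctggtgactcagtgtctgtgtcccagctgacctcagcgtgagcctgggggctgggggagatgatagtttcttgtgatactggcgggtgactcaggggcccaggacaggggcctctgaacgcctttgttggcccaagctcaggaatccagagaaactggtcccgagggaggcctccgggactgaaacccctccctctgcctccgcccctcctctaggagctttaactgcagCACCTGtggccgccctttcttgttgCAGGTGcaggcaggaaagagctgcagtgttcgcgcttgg
Crb3 and Ap1m2 hold 4 E-boxes each and the other three 2 each. The matches of Ap1m2 begin at -81, -51, -21 and -9 bases from the start, and those of Crb3 at -118, -63, -7 and 25.

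Of the 486 genes that rose and have a promoter in the table, 214 (44.0%) held CAGGTG on either strand, against 71 of 463 genes that fell (15.3%) and 2571 of 11617 genes not called (22.1%). Counted per promoter, the shares were 36.9%, 12.8% and 19.3%, against 20.2% of all 32851 promoters of the same length. At least 2 copies were held by 13.2%, 1.08% and 3.31% of the 3 sets. Median GC content was alike, at 60.3%, 59.7% and 59.7%. Within genes of lowest, middle and highest promoter GC content, divided at 56.7% and 65.3%, genes that rose held it in 26.8%, 53.4% and 48.3%, and genes not called in 20.4%, 23.0% and 23.1%. For 3 further E-boxes, searched the same way, the shares lay closer together: CACGTG was held by 9.47% of genes that rose and 11% not called, CAGCTG by 20.6% and 18.2%, and CATATG by 2.67% and 2.38%. The same shares were 28.8% and 26.9% for the Tfap2 motif GCCNNNGGC, 3.91% and 2.11% for the Hnf1 motif GTTAATNA, 2.67% and 2.56% for the Gata motif AGATAAG, and 0 and 0.25% for the Grhl motif AACCGGTT. By group, 12 of the 13 junction genes and 8 of the 11 keratin and apical genes that rose and have a promoter held CAGGTG, compared with 3 of 11 ureteric transcription regulators, 0 of 4 genes of Gdnf and Ret signalling and 3 of 9 duct transport genes. Over all measured members with a promoter, called or not, the counts in the same order were 15 of 20, 9 of 16, 8 of 20, 2 of 15 and 9 of 22. None of the 8 mesenchymal adhesion genes, none of the 16 stromal regulators and 1 of the 12 interstitial matrix genes that fell held it. These shares are descriptions with no test; a match is not a bound site, a gene with several promoters counts if any holds the hexamer, and the motifs were chosen with the differences known.

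**Figure D3:**
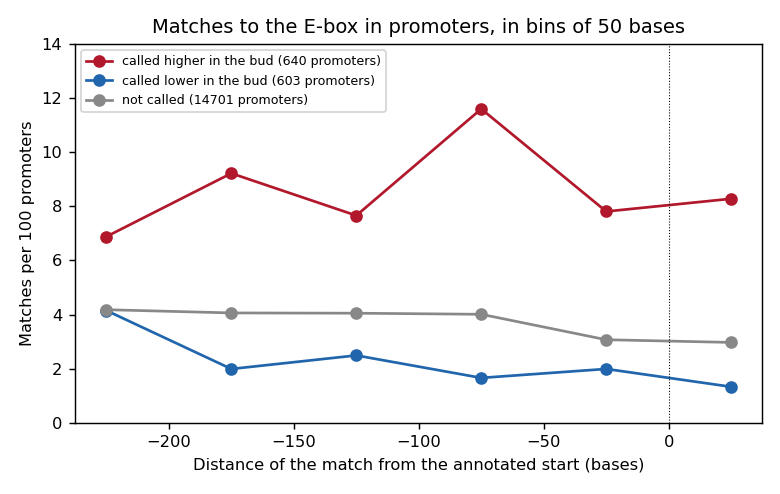
Matches to the CAGGTG E-box on either strand per 100 promoters, in bins of 50 bases by distance from the annotated start, for genes called higher in the bud (640 promoters), called lower (603) and not called (14701). In the bin from 100 to 50 bases before the start, the values are 11.6, 1.66 and 4.01.

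Of the 4 repressor genes, 3 fell in the bud. Zeb1 measured 8.80, 10.31, 10.10 and 9.70 in the bud arrays and 13.45 to 14.93 (median 14.11) in the mesenchyme, and fell by 4.44 on the log2 scale (SE 0.79, limma adjusted p = 0.000124). Zeb2 measured 7.01, 6.82, 7.29 and 7.45 in the bud arrays and 8.47 to 10.93 (median 10.20) in the mesenchyme, a difference of -2.90. Snai2 measured 7.82, 8.27, 8.40 and 9.69 in the bud arrays and 13.29 to 14.56 (median 14.01) in the mesenchyme, a difference of -5.40, and for all 3 genes every bud array lay below every mesenchyme array. Snai1 was not called, with 7.68, 7.11, 5.73 and 7.51 in the bud arrays and 7.01 to 8.52 (median 7.54) in the mesenchyme, and its groups overlapped.

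Transcription regulators of the ureteric epithelium rose in 15 of 27 cases and fell in none (median 1.85). Tfap2a, an epithelial AP-2 factor, measured 13.59, 13.58, 13.73 and 13.79 in the bud arrays and 7.40 to 11.05 (median 8.95) in the mesenchyme; it rose by 4.5, and its relative Tfap2b by 4.35. Lhx1 and Gata3, both needed for the nephric duct, rose by 4.98 and 3.88, and Emx2, a homeobox gene needed for bud outgrowth and branching, measured 13.91, 13.94, 13.92 and 13.85 in the bud arrays and 6.65 to 10.95 (median 9.59) in the mesenchyme. Grhl2 (3.89), Ovol2 (3.59) and Elf5 (4.12), regulators of epithelial identity, and Tfcp2l1 (4.52), a regulator of collecting duct cells, rose with them. Pou3f3, a POU factor, measured 15.08, 14.38, 14.71 and 14.47 in the bud arrays and 5.25 to 12.20 (median 9.20) in the mesenchyme and rose by 5.34; it is better known from the nephron tubule. Spread in the bud was small: Emx2 and Lhx1 varied by at most 0.23 between bud arrays, less than the gap to any mesenchyme array.

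Gdnf and Ret signalling divided between the tissues by role. Gdnf, the ligand, measured 8.95, 7.15, 8.68 and 7.80 in the bud arrays and 12.93 to 14.32 (median 13.30) in the mesenchyme, and fell by 5.27 on the log2 scale (SE 1.07, limma adjusted p = 0.000658). Ret, the receptor, measured 15.45, 14.69, 15.06 and 14.71 in the bud arrays and 7.99 to 12.81 (median 8.93) in the mesenchyme, and rose by 5.34 (SE 1.21, limma adjusted p = 0.00232). Mesenchyme replicates 1 and 2 held the highest Ret values, 12.81 and 11.77, and against replicates 5 to 8 alone the difference was 6.74. The co-receptor gene Gfra1 was present in both tissues: it measured 15.23, 14.61, 14.87 and 14.99 in the bud arrays and 11.89 to 13.54 (median 12.48) in the mesenchyme, and its call (difference 2.35, limma adjusted p = 0.0435) was lost in 10 of 12 fits that left out 1 array, with adjusted p of 0.0367 to 0.131, and was not made against the 4 like-titled arrays (2.55, adjusted p = 0.0713). Of 19 measured genes of the pathway, 6 rose, 1 fell and 12 were not called (median 1.29). Spry1, an inhibitor induced by the receptor, measured 14.18, 14.32, 14.75 and 14.38 in the bud arrays and 11.11 to 12.20 (median 11.88) in the mesenchyme and rose by 2.66. Wnt11, a target at the bud tip, rose by 1.98. The target Etv4 rose by 2.25, a call lost in 6 of the 12 such fits (adjusted p 0.0188 to 0.112), while Etv5 measured 13.28, 13.09, 13.14 and 13.34 in the bud arrays and 10.92 to 12.17 (median 11.77) in the mesenchyme and was not called although its groups did not overlap (limma adjusted p = 0.596). The SE of Etv5, 1.09, comes from the spread within all 9 components. Its standard deviation was 0.12 in the bud arrays and 0.47 in the mesenchyme. Slit2, a guidance ligand that limits the Gdnf domain, rose by 1.29, and its call was lost without bud replicate 3 (limma adjusted p = 0.0634); its receptor gene Robo2 was not called (-1.29, limma adjusted p = 0.179).

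**Figure D4:**
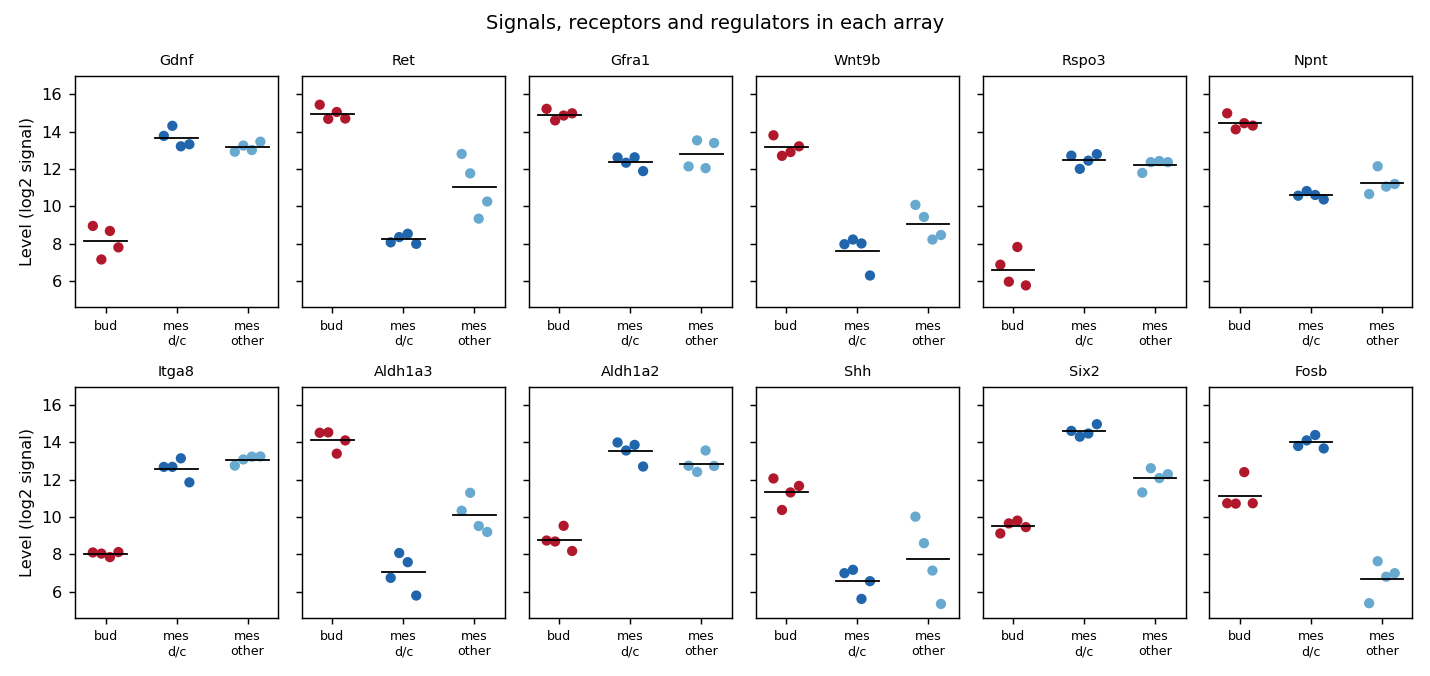
Log2 signal of 12 genes in each array, with points for arrays and lines for group means; groups are the bud, mesenchyme titled dissected or collagenase (mes d/c) and the other mesenchyme (mes other), 4 arrays each. Gdnf, Rspo3, Itga8, Aldh1a2 and Six2 lie lower in the bud, Ret, Wnt9b, Npnt and Aldh1a3 higher, and Fosb separates the mesenchyme arrays.

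Of 36 Wnt ligands and modulators, 4 rose and 8 fell. Wnt9b, the inducer of the nephron, measured 13.81, 12.71, 12.91 and 13.22 in the bud arrays and 6.29 to 10.08 (median 8.22) in the mesenchyme and rose by 4.83 (SE 0.55, limma adjusted p = 8.05e-08). Wnt6 rose by 3.46. Wnt7b, a ligand of the later collecting duct, rose by only 1.10, and its call was lost in 6 of 12 fits that left out 1 array (adjusted p 0.0263 to 0.138) and was not made against the 4 like-titled arrays (0.99, adjusted p = 0.136). On the mesenchymal side, Rspo3, which amplifies Wnt signals, measured 6.87, 5.96, 7.82 and 5.76 in the bud arrays and 11.79 to 12.80 (median 12.40) in the mesenchyme; its relative Rspo1 (-2.76), the secreted inhibitor Frzb (-3.81) and the receptor gene Ror2 (-2.32) fell with it. Wnt4, a ligand of the forming nephron, measured 8.88, 6.75, 5.59 and 8.97 in the bud arrays and 10.20 to 12.04 (median 10.82) in the mesenchyme, and fell by 3.46 on the log2 scale. Frizzled receptor genes also went both ways, Fzd6 (2.48) and Fzd8 (2.17) higher and Fzd1 (-2.36) and Fzd2 (-1.97) lower, each in the 8-array comparison.

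Of 31 genes of the Bmp and Tgfb list, 2 rose and 6 fell. Bmp4, which restrains bud outgrowth, measured 8.79, 8.26, 8.59 and 8.69 in the bud arrays and 10.69 to 12.21 (median 11.59) in the mesenchyme, and fell by 2.92 on the log2 scale; Bmp2 (-3.25) and Bmper (-5.68), a Bmp-binding modulator, also fell. Sostdc1, a secreted Bmp and Wnt antagonist, measured 11.89, 11.61, 11.12 and 11.90 in the bud arrays and 5.27 to 9.13 (median 5.84) in the mesenchyme and rose by 5.27. Bmp7 was not called (1.12, limma adjusted p = 0.136), and was called with median scaling, with array weights, with the title method as a term and in the fit of the 12 arrays alone. Among Fgf genes, 3 of 18 rose and 1 fell. Fgfr4 rose by 4.01 and measured 12.72, 12.49, 11.88 and 12.57 in the bud arrays and 7.47 to 9.25 (median 8.33) in the mesenchyme, and Fgf12 (2.97) and the carrier gene Fgfbp1 (2.88) were the other 2 that rose. Shh, a ligand of the hedgehog pathway, measured 12.07, 10.38, 11.32 and 11.67 in the bud arrays and 5.34 to 10.02 (median 7.06) in the mesenchyme and rose by 4.18. Its co-receptor gene Gas1 fell by 2.53 on the log2 scale, and the pathway's target genes Ptch1 (-0.84, limma adjusted p = 0.22) and Gli1 (-1.48, limma adjusted p = 0.0783) were not called; Gli1 was called without mesenchyme replicate 2 (adjusted p = 0.0342). Of 18 Notch pathway genes, 2 rose and 4 fell, and against the 4 like-titled arrays 1 rose and 1 fell.

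Retinaldehyde dehydrogenases make retinoic acid, and 3 of their genes were called. Aldh1a3 measured 14.52, 14.54, 13.40 and 14.11 in the bud arrays and 5.79 to 11.30 (median 8.63) in the mesenchyme and rose by 5.58. Aldh1a1 measured 13.98, 14.33, 14.06 and 14.16 in the bud arrays and 5.78 to 11.39 (median 7.92) in the mesenchyme and rose by 6.15. Aldh1a2, the enzyme of the stroma, measured 8.74, 8.69, 9.53 and 8.18 in the bud arrays and 12.42 to 14 (median 13.16) in the mesenchyme, and fell by 4.42 on the log2 scale. The bud and mesenchyme arrays did not overlap for any of the 3. Crabp1, which binds retinoic acid in the cell, fell by 4.82. Cyp26a1, which degrades it, measured 9.17, 8.79, 9.30 and 8.61 in the bud arrays and 5.37 to 8.26 (median 6.18) in the mesenchyme, and its call (difference 2.44, limma adjusted p = 0.0484) was lost in 10 of 12 fits that left out 1 array, with adjusted p of 0.0292 to 0.133, and was not made against the 4 like-titled arrays (2.32, adjusted p = 0.143). Over the 18 measured genes of the pathway, 3 rose and 3 fell, and against the 4 like-titled arrays 2 rose and 2 fell.

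Nephron progenitor regulators fell in 13 of 19 cases and rose in none (median -3.07). Eya1, which acts at the top of the progenitor program, measured 8.48, 8.01, 9.38 and 8.05 in the bud arrays and 13.12 to 14.89 (median 13.89) in the mesenchyme, and fell by 5.48 on the log2 scale (SE 0.86, limma adjusted p = 2.09e-05). Six2, which keeps progenitors undifferentiated, measured 9.12, 9.66, 9.81 and 9.46 in the bud arrays and 11.32 to 14.98 (median 13.46) in the mesenchyme. It fell by 3.83 against all 8 arrays, and the difference from the 4 like-titled ones was -5.09; the 2 sets of mesenchyme arrays did not overlap for Six2, at 14.31 to 14.98 in replicates 5 to 8 and 11.32 to 12.62 in replicates 1 to 4 (difference 2.51, limma adjusted p = 0.0436). Sall1 (-4.84), Wt1 (-4.37), Meox1 (-5.10) and Uncx (-4.70) fell too. Osr1, an early marker of the field, measured 7.22, 5.39, 6.40 and 5.58 in the bud arrays and 6.27 to 9.03 (median 7.74) in the mesenchyme and was not called (-1.55, limma adjusted p = 0.0594), and was called without bud replicate 1 and without mesenchyme replicates 6 or 7. Cited1, a marker of the youngest progenitors, was not called (1.17, limma adjusted p = 0.597).

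Stromal regulators fell in 22 of 31 cases (median -3.26). Foxd1, the defining gene of the stromal progenitors, measured 6.61, 7.50, 8.11 and 7.41 in the bud arrays and 12.97 to 14.95 (median 13.42) in the mesenchyme, and fell by 6.16 on the log2 scale (SE 0.78, limma adjusted p = 6.32e-07). Foxc2 measured 5.73, 6.18, 8.85 and 8.38 in the bud arrays and 12.87 to 14.24 (median 13.45) in the mesenchyme and was the largest fall among called genes without overlap, -6.21; its relative Foxc1 fell by 5.05. Tbx18 (-4.60), a gene of the ureteral mesenchyme, Meis1 (-5.29) and Tcf21 (-3.71) fell as well. The 2 members that rose were the T-box genes Tbx2 and Tbx3, known also as genes of the nephric duct and its derivatives. Tbx2 measured 13.82, 13.29, 13.62 and 13.51 in the bud arrays and 10.42 to 12.24 (median 10.81) in the mesenchyme and rose by 2.48. Tbx3 rose by 2.68, and its call was lost without bud replicates 1, 3 or 4 (limma adjusted p up to 0.0587). Among genes outside the lists with the largest falls were Arg1, an arginase gene (-5.69), Shisa3 (-5.58) and the adhesion gene Vcam1, which lay near the floor in every bud array with 5.47, 5.29, 5.41 and 5.38 in the bud arrays and 10.20 to 11.60 (median 10.97) in the mesenchyme. Plat, the tissue plasminogen activator gene, measured 8.35, 8.78, 8.58 and 8.53 in the bud arrays and 12.07 to 13.49 (median 13.20) in the mesenchyme and was among the 10 falls with the smallest p.

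Hox genes, which mark position along the body axis, fell in 13 of 28 cases and rose in 2. Taken over all clusters, the falls were more frequent at the posterior end. Of 10 measured genes of paralogue groups 9 to 13, 8 fell and none rose. Of 18 measured genes of groups 1 to 8, 5 fell and 2 rose. The clusters were not alike: 3 of 4 Hoxc genes of groups 1 to 8 fell, and the only Hoxb fall was Hoxb1. Hoxa9 measured 9.59, 9.94, 10.66 and 9.10 in the bud arrays and 14.60 to 15.49 (median 14.98) in the mesenchyme, and fell by 5.18 on the log2 scale (SE 0.28, limma adjusted p = 2.4e-15), the smallest p of all genes that fell. Hoxd10 measured 7.82, 7.77, 9.21 and 8.27 in the bud arrays and 13.54 to 14.75 (median 13.73) in the mesenchyme, a difference of -5.69. Within the Hoxd cluster the change of sign lay between neighbouring genes. Hoxd1 (2.34) and Hoxd8 (1.75) rose, Hoxd3 (0.94) and Hoxd9 (0.46) were not called, and Hoxd10, Hoxd11 (-3.07) and Hoxd13 (-3.85) fell; the rise of Hoxd1 was lost without bud replicate 3 (limma adjusted p = 0.0789). Hoxd8 measured 13.81, 14.03, 14.44 and 14.14 in the bud arrays and 11.88 to 12.82 (median 12.38) in the mesenchyme, so it was present in both tissues. In the Hoxa cluster, Hoxa9, Hoxa10 (-4.76) and Hoxa11 (-1.73) fell, and of the 5 measured genes before them only Hoxa5 did (-1.62). The Hoxa10 call rests on 1 probe set: on the one with the largest variance the difference was -0.05 (limma adjusted p = 0.996). Hoxa10 was 1 of 10 named genes that lost their call with that choice of probe set, and 2 further named genes reversed direction. Calls without a second called probe set were common, among them those of Eya1, Vcam1, Wnt9b and Plat. Of 6 measured Hoxc genes 5 fell, led by Hoxc8 (-5.17), Hoxc10 (-5.14) and Hoxc9 (-3.58). Of 7 measured Hoxb genes only Hoxb1 was called, with 6.47, 6.62, 6.88 and 6.74 in the bud arrays and 9.17 to 11.02 (median 9.95) in the mesenchyme, and Hoxb2 to Hoxb6 lay between 0.06 and 1.5 without a call.

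**Figure D5:**
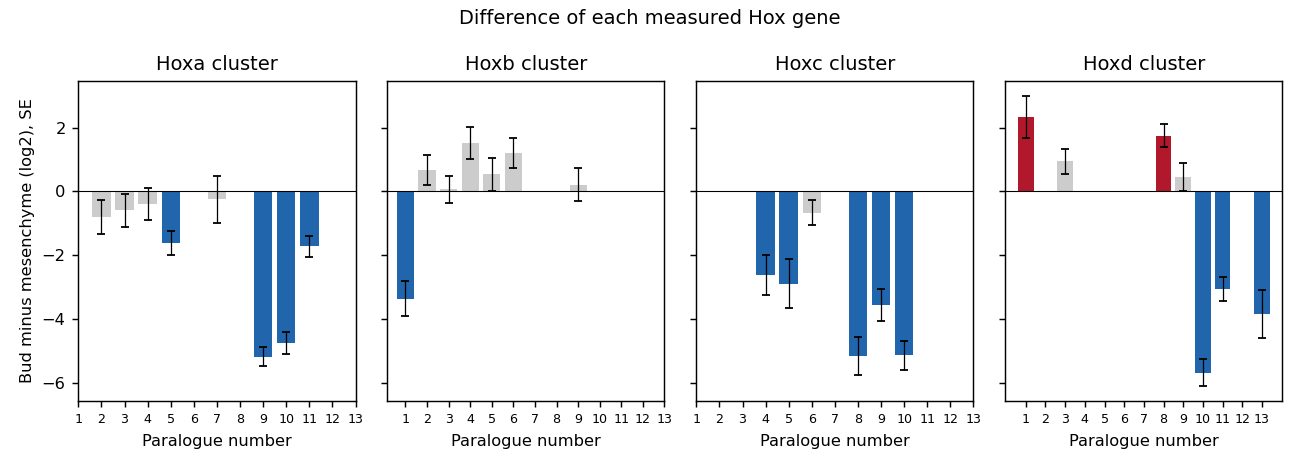
Difference between bud and mesenchyme in log2 signal (bars, with SE) for the 28 measured Hox genes, by cluster and paralogue number; red bars rose, blue bars fell and grey bars were not called. Groups 9 to 13 hold 8 falls among 10 genes, and the Hoxd cluster changes sign between Hoxd9 and Hoxd10.

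None of 32 interstitial matrix genes rose and 18 fell (median -2.35): the collagen gene Col3a1 measured 9.43, 10.10, 11.14 and 10.13 in the bud arrays and 14.89 to 16.18 (median 15.70) in the mesenchyme, Col1a1 fell by 4.47 on the log2 scale, and the difference of the proteoglycan gene Vcan was -4.91. Of 32 basement membrane and integrin genes, 9 rose and 6 fell. Npnt and Itga8 form a ligand and receptor pair needed for bud entry into the mesenchyme. Npnt, the bud-side ligand, measured 14.99, 14.13, 14.46 and 14.33 in the bud arrays and 10.37 to 12.15 (median 10.74) in the mesenchyme and rose by 3.55. Itga8, the integrin that binds it, measured 8.10, 8.04, 7.85 and 8.12 in the bud arrays and 11.86 to 13.25 (median 12.93) in the mesenchyme, and fell by 4.81 on the log2 scale. Laminin chains divided as well, with Lama1 rising by 2.93 and Lama2 falling by 4.10. Lama5 stood at the threshold (2.44, limma adjusted p = 0.0499) and lost its call in all 12 fits that left out 1 array (adjusted p 0.0541 to 0.170), and it was not called against the 4 like-titled arrays (2.60, adjusted p = 0.0882). Of the Fraser complex genes, Frem2 measured 14.01, 13.10, 13.77 and 13.18 in the bud arrays and 8.57 to 10.45 (median 10.02) in the mesenchyme and rose, whereas Frem1 measured 8.71, 8.19, 8.94 and 8.99 in the bud arrays and 11.37 to 13.28 (median 12.75) in the mesenchyme and fell. Fras1 (1.41) and Lamc1 (2.09) rose on the probe set with the highest mean but were -0.52 and -0.07 on the probe set with the largest variance, so their direction depends on the probe set. Nid1 fell by 2.63, and Col18a1, whose product lies in the basement membrane, rose by 1.73. The axon guidance gene Ntn1, also a laminin relative, measured 5.51, 5.43, 5.42 and 5.45 in the bud arrays and 9.46 to 10.72 (median 10.18) in the mesenchyme. Unc5c (-2.56) and Slit3 (-2.37) fell and Epha1 rose (3.15) in a guidance list with 3 of 46 higher and 6 lower. In that list 19.6% were called, against 8.15% of all genes.

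Several genes known from the mature collecting duct were already higher in the bud, with 12 of 32 duct transport and channel genes higher and 2 lower. Calb1, a calcium-binding protein gene of the duct, measured 16.58, 16.65, 16.64 and 16.60 in the bud arrays and 7.73 to 14.83 (median 10.22) in the mesenchyme; the rise was 5.86 against all 8 arrays and 8.49 against replicates 5 to 8. The gamma subunit gene of the epithelial sodium channel, Scnn1g, measured 11.69, 10.74, 10.18 and 11.09 in the bud arrays and 5.53 to 8.40 (median 6.31) in the mesenchyme and rose by 4.37. Its partners did not pass the test, with Scnn1a at 0.62 (limma adjusted p = 0.705) and Scnn1b at 1.43 (limma adjusted p = 0.055). The water channel gene Aqp2 was low in both tissues, with 6.57, 7.64, 7.55 and 7.81 in the bud arrays and 6.11 to 8.29 (median 7.28) in the mesenchyme. Potassium channel genes Kcnj16 (4.64) and Kcnk1 (4.36) rose, but in their family of 74 as a whole 6 rose and 7 fell (median -0.02). In that family 17.6% were called, against 8.15% of all genes. Of 28 membrane-bound serine proteases and their inhibitors, 7 rose, none fell and 21 were not called (median 0.44), and 5 rose against the 4 like-titled arrays. St14, encoding matriptase, measured 13.24, 12.65, 12.70 and 12.74 in the bud arrays and 6.05 to 9.79 (median 7.67) in the mesenchyme, its partner Prss8 rose by 4.30, Tmprss2 by 4.27, and the inhibitor genes Spint1 and Spint2 by 3.43 and 3.13. Pkhd1, mutated in recessive polycystic kidney disease, measured 13.06, 12.48, 12.42 and 12.63 in the bud arrays and 5.26 to 9.38 (median 6.53) in the mesenchyme and rose by 5.88, 1 of 3 rises among 12 measured cystic and ciliary genes. The genes of smallest p among the rises also held Prmt8, an arginine methyltransferase gene (4.20), Dcdc2a, a ciliary doublecortin relative (4.17), and Trpv4, an osmosensitive cation channel gene (3.54).

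Of 30 cell cycle genes 3 rose and none fell, so 10% were called, near the 8.15% of all genes. Those that rose included Ccnd1 (1.73), a cyclin of the first growth phase, and Cdkn1a, an inhibitor of cyclin-dependent kinases. Cdkn1a measured 11.47, 11.94, 12.34 and 12.48 in the bud arrays and 8.51 to 10.25 (median 9.30) in the mesenchyme. Its relative Cdkn1c, an imprinted gene, measured 13.08, 13.36, 13.15 and 13.28 in the bud arrays and 14.40 to 15.20 (median 15.10) in the mesenchyme, and fell by 1.73 on the log2 scale. Igfbp2, which binds insulin-like growth factors, rose by 3.40 and was the 1 rise among 20 Igf and imprinted genes, of which 4 fell. Against all 8 arrays, limma called none of 21 respiratory chain genes, 53 ribosomal protein genes, 38 proteasome subunits and 22 vacuolar ATPase subunits. Their unadjusted p (limma) was under 0.05 for 1, 3, 3 and 2 genes, in the same order. Of 290 zinc finger protein genes, 1.38% were called, and of 312 solute carriers 7.69%, against 8.15% of all genes. Against the 4 like-titled arrays, 6 ribosomal protein genes, 1 proteasome subunit and 1 vacuolar ATPase subunit were called higher in the bud. In the mesenchyme arrays titled dissected or collagenase, 7 ribosomal protein genes, 2 proteasome subunits and 1 respiratory chain gene were called lower than in the other mesenchyme. Between these mesenchyme sets 0.828% of all genes were called.

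Markers of other cell types fell in part. Of the macrophage list 8 of 14 fell, led by Csf1r, the receptor for the macrophage growth factor, at -4.73, and the lysosomal gene Laptm5 at -4.29. Of 9 erythroid genes 5 fell, and the embryonic globin gene Hbb-bh1 measured 9.20, 11.16, 12.15 and 10.26 in the bud arrays and 13.96 to 16.21 (median 14.87) in the mesenchyme; its call was lost without bud replicates 1 or 4 (limma adjusted p up to 0.0898) and was not made against the 4 like-titled arrays (adjusted p = 0.0992). Of 16 endothelial genes 7 fell, against 2 in the comparison with the like-titled arrays, and of 10 mural genes 6 fell and 1 rose, with Cspg4, a pericyte gene, at -4.74. In pooled tissue, fewer cells of a type and less RNA per cell cannot be told apart. Erbb3, listed as a neural crest marker, rose by 4.45, while Sox10, the defining gene of that lineage, was not called, and 3 of the other neural genes fell, none of them against the 4 like-titled arrays. Of 8 muscle genes 2 fell (median -0.42).

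Against the 4 mesenchyme arrays titled dissected or collagenase, 1198 genes (7.63%) were called, 623 higher in the bud and 575 lower. The 997 genes called in the same direction in both comparisons were 77.9% of the calls against 8 arrays and 83.2% of those against 4, and no gene was called in opposite directions; the comparisons share the bud arrays and 4 mesenchyme arrays. Median scaling gave 955 genes higher and 495 lower. In this comparison 25 of 34 junction genes and 14 of 27 ureteric regulators rose and 13 of 19 nephron progenitor regulators fell, while endothelial genes went from 7 falls to 2, macrophage genes from 8 to 6, erythroid genes from 5 to 3, mural genes from 6 to 4 and neural genes from 3 to 0. Falls also numbered 10 of 20 for mesenchymal adhesion, 16 of 32 for interstitial matrix, 20 of 31 for stromal regulators and 6 of 36 for Wnt genes.

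The 2 sets of mesenchyme arrays differed from each other in 130 genes (0.828%), 42 higher and 88 lower in the arrays titled dissected or collagenase, and 17 of these genes are also among the 1280. Leaving out mesenchyme replicates 1, 2, 4, 6 or 8 reduced the 130 to 42, 39, 51, 74 and 69. The genes called in both include bud genes that were nearer to the floor in the dissected and collagenase arrays: Esrp1 (-5.20), Calb1 (-5.27), Cldn7 (-4.20), Cldn3 (-4.19), Pou3f3 (-3.55), Mal (-3.31), Cdh1 (-3.30), Cdh16 (-3.20), Cldn8 (-3.07), Krt8 (-2.49) and Igfbp2 (-1.78), as differences of these arrays from the other mesenchyme. Fosb, Fos and Egr1, immediate early genes, which respond quickly to growth signals and stress, went the opposite way. Fosb measured 10.72 to 12.41 in the bud, 13.68 to 14.40 in mesenchyme replicates 5 to 8 and 5.38 to 7.63 in replicates 1 to 4, and the 3 sets did not overlap. Its difference between bud and mesenchyme was therefore 0.80 against all 8 arrays, not called, and -2.85 against the 4 like-titled arrays (limma adjusted p = 5.23e-05). Fos and Egr1 were higher in replicates 5 to 8 than in replicates 1 to 4 by 7.03 and 4.53, and neither was called between bud and mesenchyme in either comparison. Of 23 immediate early and heat shock genes, 8 were called higher in the dissected and collagenase arrays than in the other mesenchyme, and the mean log2 signal of the whole list was 11.55 to 12.07 in the bud, 11.33 to 12.20 in replicates 5 to 8 and 9.60 to 10.17 in replicates 1 to 4. Tissue source, method and the protocol behind each title cannot be told apart in these sets.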

How the data were processed

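The deposited values are linear signal intensities, 1 per probe set and array, made by the authors with GCOS per the submitters' processing notes (version not given in the sources used here). Each array's 2% trimmed mean is 1500, measured over all 37 arrays. Signals were offset by 34.62 (the 20th percentile), log2 transformed and quantile normalized over the 37 arrays. Probe sets above the pooled median of 7.89 in at least 2 arrays, with a single gene symbol in the platform annotation (34945 of 45101), were kept, and the one with the highest mean stood for each gene. R 4.3.3 and limma 3.58.1 (lmFit, eBayes with trend) fitted 1 mean for each of the 9 components, with 28 residual degrees of freedom, and p-values were adjusted over all 15709 genes by Benjamini-Hochberg. Steps were tested on simulated data. The number of arrays limits the precision.

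The members and all gene lists and families were chosen with earlier results of these data known. Of 690 listed symbols 635 were measured; the others were not analysed here. Named genes are the 15 largest non-overlapping calls and 10 smallest adjusted p in each direction, members of the lists and families, and the 8 largest per direction called in only the 8-array or only the 4-array comparison, from which the text draws. Promoters were found for 12566 of the tested genes in RefSeq windows on GRCm38.p6, without chromosome 18; motifs and printed promoters were chosen after the gene values were seen. Alternatives covered the offset, scaling, filter, choice of probe set, array weights, arrays fitted, title method, date and number, the fold threshold, and each array left out.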

Additional observations from a re-analysis of the deposited data

Results flagged for a closer look

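Among the 336 sets of values examined for an array far from its group (156 named genes and 12 list levels, in the bud and in the mesenchyme), 16 passed Dixon's 95% criterion, and chance alone passes about 1 in 20. Each is given as log2 signal.

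Mesenchyme replicate 8, the array that correlates least with the others, was the distant one for 6 genes. Foxd1 measured 14.95 there against 12.97 to 13.85 in the other mesenchyme arrays, and Hoxd11 10.44 against 8.52 to 9.42. Itga8 measured 11.86 against 12.69 to 13.25, Vcan 14.56 against 15.17 to 15.68, Plat 12.07 against 12.85 to 13.49 and Fgfbp1 5.52 against 6.37 to 7.06. Mesenchyme replicate 2 was highest for Npnt, at 12.15 against 10.37 to 11.20, and for Rab25, at 7.51 against 5.56 to 6.24.

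Bud replicate 3, the bud array titled collagenase, was the distant one for 4 genes. Fosb measured 12.41 there against 10.72 to 10.74 in the other bud arrays, Hoxd1 11.69 against 10.84 to 10.87 and Gas1 12.51 against 11.86 to 11.89, while Krt18 was lower, at 12.80 against 13.80 to 13.95. Bud replicate 1 was highest for Cdh2, at 10.02 against 9.38 to 9.46, for the protease gene St14, at 13.24 against 12.65 to 12.74, and for its inhibitor gene Spint1, at 12.57 against 11.68 to 11.83. Bud replicate 2 was lowest for Tbx3, at 13.47 against 13.78 to 13.83.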

How the results depend on the processing

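Of the 141 named genes that were called, 111 kept direction and call in every alternative planned; 2 reversed, 13 lost the call in an alternative other than the stricter test against a difference of 1 or a left-out array, and 9 lost it with 1 array left out. The 1280 genes called against 8 arrays became 2484 with array weights, 2119 with only the 12 arrays, 2299 with the title method as a term, 393 tested against a difference of 1, and 961 to 1250 with 1 array left out. The 1198 called against 4 arrays became 2918, 2512, 2293, 348 and 875 to 1162. The 130 called between mesenchyme sets became 1173 with array weights, 1061 with only the 12 arrays, 81 with the probe set of largest variance, 3 tested against a difference of 1, and 39 to 125 with 1 array left out; the title method could not be fitted there. With the title number as a replicate block the counts were 1745, 1919 and 646. Same-numbered arrays correlated from -0.21 to 0.17 in their deviations from the group mean. No same-numbered bud and mesenchyme arrays share a title method, so these correlations cannot show whether the numbers pair the samples. The 1 pair that shares a title date correlated at 0.47, the highest of the 32 pairs of a bud and a mesenchyme array. With the title date as a random block the counts were 1289 and 1209. The planned fixed date term, over the 12 arrays with each undated array at its own level, left no residual degrees of freedom. Further date terms were chosen after seeing the data. Over all 37 arrays, where the difference rests on that 1 pair, both counts were 0 (603 genes at an unadjusted p under 0.05 in each, limma), the median SE was 1, and Robo2 (0.20), Osr1 (0.13), Scnn1a (-0.26), Aqp2 (-0.69), Fosb (-1.70) and Fos (-0.96) reversed. Over the 12 arrays with the undated as 1 level the counts were 2164, 2565 and 691, and Tjp1 and Aqp2 reversed (each -0.03). The direction reversed for Tjp1 (-0.17 with the method term, -0.02 without bud replicate 3, 0.00 without mesenchyme replicate 4), Lamc1 (-0.07) and Fras1 (-0.52) with the probe set of largest variance, and Aqp2 (-0.22), Fosb (-2.70), Fos (-1.77) and Egr1 (-0.29) with the method term; other causes were not tested. Median scaling gave 44.1% of calls between mesenchyme sets as higher, against 32.3%. Signals near the floor of 5.13 have no order, so large differences of such genes are imprecise.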
